A study of Mus musculus with 6 samples.

Results

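DAMGO, a synthetic enkephalin peptide that activates the mu opioid receptor, was compared with untreated control in cultured mouse neural stem cells, in both states in which the cells were collected. The comparison used 4 of the 6 libraries of the series: NSC control, NSC with DAMGO, and control and DAMGO libraries of differentiated cells, whose label reads D2. The other 2 libraries, 1 in each state, had received naloxone, an opioid receptor antagonist. All cells were OG2 neural stem cells at passage 8. Each group held 1 library, the labels do not say whether libraries came from separate cultures, and no other limit of the model is stated. The pairing is by state, and 13216 genes with a mean of at least 10 expected counts over the 6 libraries were compared.

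Opioid receptors are G protein-coupled receptors that act through Gi and Go proteins. On binding an agonist they lower cyclic AMP, release G protein beta-gamma subunits and can feed into ERK signalling. Neural stem cells divide as multipotent progenitors and give rise to neurons, astrocytes and oligodendrocytes when growth conditions change. Transcripts read here are therefore those of the receptors, of their Gi, cyclic AMP and ERK pathways, of early response genes, of the cell cycle and of the neural lineages.

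The 4 libraries held 10674127 (NSC control), 9112916 (NSC DAMGO), 10218353 (D2 control) and 8809642 (D2 DAMGO) expected counts. Levels are in CPM, the library-scaled count after TMM normalisation. Within a state, change is the log2 ratio of DAMGO to control with 2 counts added, and the count ratio carries an exact binomial 95% interval that covers counting error only. No p-value can be given within a state. Across both states an additive edgeR model of state and ligand over all 6 libraries gave the fold change, its standard error (SE) and its Benjamini-Hochberg adjusted p. That test has 2 residual degrees of freedom, so its p-values reflect the spread among these libraries and nothing beyond them. Neural identity was present in every library: nestin (Nes) was at 1823 and 1831 CPM in NSC control and NSC DAMGO, and at 395 and 408 CPM in D2 control and D2 DAMGO. Astrocytic Gfap was at 0.0944 and 0.221 CPM in NSC and at 6.87 and 10.9 CPM in D2, in the same order.

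The receptor that DAMGO binds was not detected. Oprm1, the mu receptor (mm10, chromosome 10, 6758506 to 7038198), had 0 counts in all 4 libraries, which allows up to 3 counts over the 4 together, or 0.0775 CPM. Oprd1, the delta receptor, and Oprk1, the kappa receptor, were each at 2 counts in total. The related nociceptin receptor Oprl1, which does not bind classical opioids with high affinity, was read at 27 counts in NSC control, 22 in NSC DAMGO, 196 in D2 control and 157 in D2 DAMGO. Its count ratio was 0.951 in NSC (95% counting interval 0.516 to 1.73) and 0.924 in D2 (0.744 to 1.15), so no change was resolved at this depth. The opioid growth factor receptor Ogfr, a nuclear protein unrelated to the other receptors, was at 80.9 CPM in NSC control, 80.2 in NSC DAMGO, 158 in D2 control and 170 in D2 DAMGO. Among the peptide precursors, Penk, which encodes proenkephalin, had 58 counts in the D2 control library. It had 0 counts in D2 DAMGO, D2 naloxone, NSC control and NSC DAMGO. Penk missed the minimum mean count and was not tested. The dynorphin precursor Pdyn had 3 counts over the 4 libraries and the nociceptin precursor Pnoc had 2.

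Paired over both states, almost no gene had a shared DAMGO change beyond the variation of ligand differences between the states. The edgeR test called 1 gene higher (0.00757% of 13216) and 1 gene lower (also 0.00757%). At an unadjusted p under 0.05 there were 317 genes, where uniform p-values would give 661. DESeq2 called 0 in either direction. The edgeR counts depended on single libraries: without NSC naloxone they were 14 higher and 11 lower, and without D2 naloxone 1 and 3. A fit without a control or DAMGO library holds that ligand in 1 state only. It no longer compares a change over both states, so its counts of genes are not set beside these. Both calls were predicted genes: Gm21738, described with its repeat family further on, and Gm28042, which overlaps other genes. Intervals of the additive fold change bound only a change shared by both states, since changes in 1 state or in opposite directions partly average out. Of 7048 genes of at least 20 CPM in each state, 7026 (99.69%) had a 95% interval of the additive fold change that lay within 1.5-fold in either direction, and the median half-width of that interval was 0.17 on the log2 scale.

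The libraries differed more in D2 than in NSC. In NSC the SD of the log2 ratio over 8093 genes of at least 20 CPM was 0.10, and 98.25% of them lay within 1.2-fold. In D2 the SD over 7895 genes was 0.18, and 94.57% lay within 1.2-fold. The 95% counting interval excluded 1 for 723 genes in NSC (8.93%) and 1594 in D2 (20.2%). Past 1.5-fold, NSC DAMGO had 3 genes higher (0.0371%) and 5 lower (0.0618%). D2 DAMGO had 28 genes higher (0.355%) and 5 lower (0.0633%). On log2(TPM + 1), the deposited per-length level, NSC had 11 genes higher (0.136%) and 10 lower (0.124%), and D2 had 37 higher (0.469%) and 14 lower (0.177%). Across genes, r between the log2 ratios on counts and on TPM was 0.72 in NSC and 0.87 in D2. Each state is 1 pair of libraries, and whether the states differ in spread could not be tested.

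**Figure D1:**
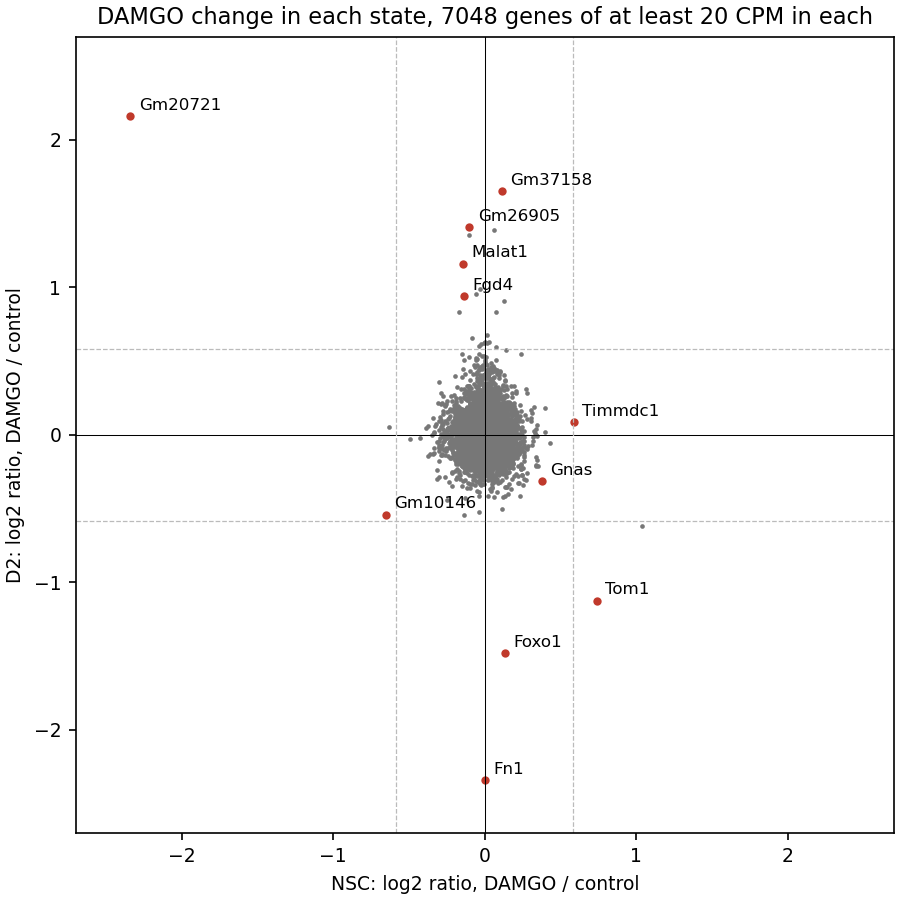
Each point is a gene of at least 20 CPM in each state (7048 genes), with its log2 ratio of DAMGO to control in NSC on the x axis and in D2 on the y axis; dashed lines mark 1.5-fold and red points are named genes. Most genes sit near the origin. Malat1 and Fn1, past 1.5-fold in D2, sit near 0 in NSC, while Tom1 and Gm20721 are past 1.5-fold in both states in opposite directions.

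The change in one state carried little information on the change in the other. Across the 7048 genes, Pearson's r between the NSC and D2 changes was -0.08 and Spearman's rho was -0.0067, as a description over genes, which are not replicates. In direction alone, 3155 of 13216 genes (23.9%) were higher with DAMGO in both states and 3422 (25.9%) were lower in both. Past 1.2-fold, 35 of the 7048 genes were higher in NSC (0.497%) and 65 lower (0.922%), and in D2 246 were higher (3.49%) and 116 lower (1.65%). Past it in both states there were 2 genes higher (0.0284% of 7048) and 3 lower (0.0426%). The higher pair, named here after their values were seen, was Flrt2, a guidance and adhesion receptor, with log2 ratios of 0.28 in NSC and 0.28 in D2, and the pseudokinase gene Nrbp2, with 0.27 and 0.31. The lower genes were Snrpg, which encodes a core protein of spliceosomal snRNPs (-0.32 and -0.30), Sac3d1 (-0.30 and -0.29) and the predicted gene Gm10146 (-0.65 and -0.54).

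At 5 CPM or more, the genes with the largest change in the same direction in both states had low counts. Degs2, a sphingolipid desaturase and hydroxylase, had 60 counts in NSC control, 87 in NSC DAMGO, 44 in D2 control and 60 in D2 DAMGO. Its count ratio was 1.69 in NSC (1.204 to 2.39) and 1.57 in D2 (1.05 to 2.38), and both intervals excluded 1. Gsdme, which encodes the pore-forming protein gasdermin E, had 71 and 93 counts in NSC and 44 and 54 in D2, and its D2 interval included 1 (0.933 to 2.16). Zdhhc15, a palmitoyltransferase, had 141 and 167 counts in NSC and 78 and 91 in D2, with ratios of 1.38 and 1.35. Its D2 interval also reached below 1 (0.984 to 1.85). Hspa1l, an HSP70 family gene, had ratios of 1.61 and 1.40, but 71.9% of its exon bases overlap the opposite-strand gene Gm10501, and this library kit does not mark strand. None of these genes passed the edgeR test (adjusted p of 1.0 for each). The others of the 10 genes were Gsap, Pla2g4b, Ccdc51, Ift88 (a ciliary transport protein), Pter and Fam129c. Some were smaller on log2(TPM + 1) than on counts. The additive log2 change went from 0.56 to 0.27 for Gsdme, from 0.36 to 0.21 for Ift88 and from 0.35 to 0.19 for Pter. For Fam129c it was larger, at 0.34 on counts and 0.43 on log2(TPM + 1).

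Genes lower in both states were of similar size. Fam189b had 125 counts in NSC control, 72 in NSC DAMGO, 123 in D2 control and 77 in D2 DAMGO, with ratios of 0.672 (0.496 to 0.906) and 0.722 (0.536 to 0.968). Its naloxone libraries had 159 counts in NSC and 106 in D2, nearer to control. Its additive log2 change was -0.52 on counts and -0.20 on log2(TPM + 1), while that of Stard5 was -0.55 and -0.73. Stard5, a lipid transfer protein, had ratios of 0.636 (0.477 to 0.842) and 0.755 (0.524 to 1.08). Ajuba, a LIM-domain scaffold of cell junctions and Hippo signalling, had ratios of 0.778 (0.524 to 1.15) and 0.740 (0.594 to 0.921). Ifitm3, an interferon-induced membrane protein, had 106 counts in D2 control and 56 in D2 DAMGO, against 87 and 59 in NSC. Slc35b3 and Zfp772 completed the group, together with Gemin4, Cox20, Apoo-ps and Pgk1-rs7, which share exon bases or sequence with other genes. Their adjusted p was 0.18 for Pgk1-rs7, 0.793 for Gemin4 and 1.0 for the others in the edgeR test.

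**Figure D2:**
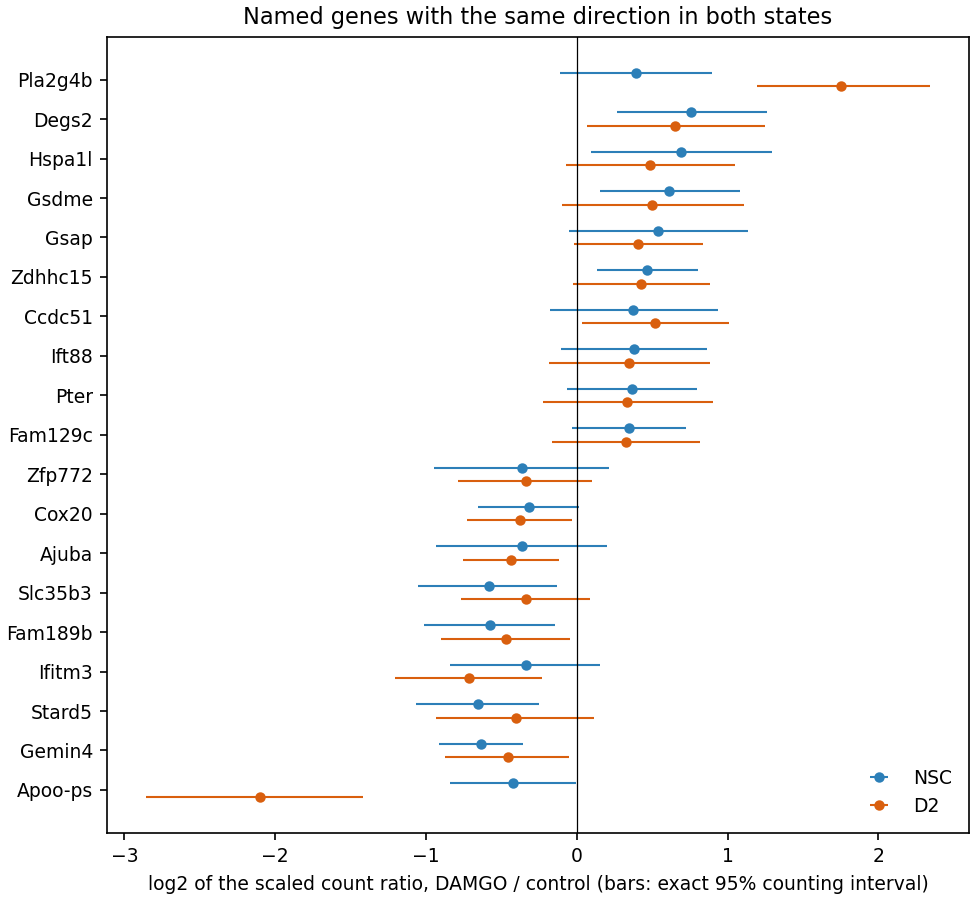
Log2 of the scaled count ratio of DAMGO to control in NSC (blue) and D2 (orange) for the named genes that moved the same way in NSC and D2; points are single library pairs and bars are exact 95% counting intervals. Pgk1-rs7, at 0 counts in both DAMGO libraries, is not drawn; in most of the genes shown at least 1 interval crosses 0.

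Several of these differences sat in genes whose exons or copies share reads with another gene, where the expected counts divide reads by an estimate. Gm28042 (chromosome 2, 120027493 to 120043033), called lower, had 41 counts in NSC control, 89 in D2 control and 0 in both DAMGO and both naloxone libraries. Against the limit of 3 counts per library, this is at least 11.7-fold lower in NSC and at least 25.7-fold lower in D2, with an adjusted p of 0.0102 (edgeR), or 0.0608 without the D2 DAMGO library. Of its exon bases, 74.7% lie in exons of Pla2g4b and 25.2% in Jmjd7 on the same strand. Pla2g4b had 65 and 73 counts in NSC and 36 and 105 in D2. Summed over the 3 genes, the ratio of DAMGO to control was 0.963 in NSC (0.768 to 1.21) and 0.964 in D2 (0.790 to 1.18).

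In NSC the summed ratio was nearer 1 than that of the single gene for other such genes too. Their partners held more counts in NSC control, so each sum lies near the partner's ratio in any case. These sums therefore cannot show whether reads moved between the genes. Gemin4, a component of the SMN complex that assembles snRNPs, was at 29.1 CPM in NSC control and 18.7 in NSC DAMGO, and 89.8% of its exon bases lie in Glod4 and 77.0% in Fam57a. The summed ratio of the 3 genes was 0.975 in NSC and 0.989 in D2. Pgk1-rs7, a copy of the glycolytic gene Pgk1, had 131 counts in NSC control, 119 in NSC naloxone, 104 in D2 control and 0 in both DAMGO libraries and in D2 naloxone. Together with Pgk1, its ratio was 1.01 in NSC (0.979 to 1.05) and 1.02 in D2 (0.979 to 1.06). That sum is mostly Pgk1, which had 6590 counts in NSC control and ratios of 1.035 and 1.039 by itself. Apoo-ps, a copy of the mitochondrial gene Apoo, was at 10.2 CPM in D2 control and 2.38 in D2 DAMGO, and the pair summed to ratios of 1.02 and 1.11. Cox20 has 91.1% of its exon bases inside the opposite-strand gene Hnrnpu. That pair, mostly Hnrnpu counts, summed to ratios of 0.973 in NSC and 1.025 in D2. Zbed6, lower in NSC at 34.0 CPM against 51.1 in control, lies wholly inside Gm38394, and that sum had ratios of 1.03 in NSC and 1.31 in D2.

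Gnas, which encodes the stimulatory G protein alpha subunit that activates adenylyl cyclase, had opposite changes in the 2 states. It was at 1004 CPM in NSC control and 1303 in NSC DAMGO, a ratio of 1.30 (1.26 to 1.33). In D2 it was at 1727 CPM in control and 1390 with DAMGO, a ratio of 0.804 (0.786 to 0.823). The predicted gene Gm20721 lies on the opposite strand with 99.0% of its exon bases inside Gnas exons, and its values ran the other way: 2809 and 474 counts in NSC, 470 and 1830 in D2. Summed with Gnas, the ratio was 1.07 in NSC (1.04 to 1.10) and 0.900 in D2 (0.881 to 0.921), so the opposite directions remained at a smaller size. The naloxone libraries gave 153 CPM of Gm20721 in NSC and 235 in D2, and 1169 and 1324 CPM of Gnas.

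Opposite changes were also found in other named genes. Past 1.2-fold in both states, 4 genes were higher in NSC and lower in D2 (0.0568%) and 3 were the reverse (0.0426%). Alyref, an mRNA export adaptor, was at 123 CPM in NSC control, 149 in NSC DAMGO, 81.9 in D2 control and 66.3 in D2 DAMGO, and its D2 log2 ratio was -0.30 on counts and -0.07 on log2(TPM + 1). Lzic and Fam177a also were higher in NSC and lower in D2. Kif21a, a kinesin motor, was at 53.2 and 43.0 CPM in NSC and at 49.9 and 64.1 CPM in D2, and Dtd1, Phpt1, Top3b and Zfp580 shared its directions on counts. On log2(TPM + 1), Top3b was lower in D2 as well (-0.0452). Tom1, an endosomal sorting protein, was at 18.5 and 31.1 CPM in NSC and at 31.1 and 14.2 CPM in D2. It had 0 counts in D2 naloxone, so its level varied widely between libraries, and the cause was not tested. In NSC alone, the highest of the other named genes were Timmdc1, an assembly factor of respiratory complex I (18.5 to 27.9 CPM), Igfbp5 (27.3 to 36.8), Nxn (19.1 to 25.3) and St7l (17.5 to 23.04). The lowest, beside Gemin4 and Zbed6, were Add2, which encodes beta-adducin (45.6 to 33.9 CPM), the MHC gene H2-K1 (28.6 to 21.5) and Hmga1b (63.9 to 48.7). Summed with the related gene Hmga1, Hmga1b had a ratio of 0.904 in NSC (0.844 to 0.969).

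The largest excess in D2 with DAMGO came from predicted genes that share a repeat. For 8 such genes together, the level was 288 CPM in D2 control, 240 in D2 naloxone and 1685 in D2 DAMGO, a ratio of DAMGO to control of 5.84 (5.61 to 6.08). In NSC the same sum was 16.2 CPM in control, 0.518 with naloxone and 1.65 with DAMGO, 9.82-fold lower with DAMGO than in control. The sequences of these genes are shown because reads from stretches that they share may not be assignable to 1 of them. The Gm21738 transcript matched itself best at a shift of 234 bases, with 62.4% of bases identical. The best shift was 225 bases in Gm10800 and 231 in Gm10801. Of the 20-base words of Gm21738, 48.4% occur in Gm10718 and 44.8% in Gm26870 on either strand, against 0 in Malat1. Mouse major satellite DNA of pericentromeric chromatin is a tandem repeat of this kind. One exon of Gm21738 (mm10, chr14:19417133-19417366, minus strand) is shown with the best matching stretch of the same length in 2 other genes of chromosome 9, from GENCODE M21 transcripts, 5′ to 3′; capitals mark the bases that differ from Gm21738, and the Gm26870 stretch is given as the reverse complement of its transcript.
Gm21738: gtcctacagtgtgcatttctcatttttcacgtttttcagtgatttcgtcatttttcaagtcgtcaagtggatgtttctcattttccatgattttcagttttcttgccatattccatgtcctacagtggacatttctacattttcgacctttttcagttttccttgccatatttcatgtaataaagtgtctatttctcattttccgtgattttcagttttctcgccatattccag
Gm26870: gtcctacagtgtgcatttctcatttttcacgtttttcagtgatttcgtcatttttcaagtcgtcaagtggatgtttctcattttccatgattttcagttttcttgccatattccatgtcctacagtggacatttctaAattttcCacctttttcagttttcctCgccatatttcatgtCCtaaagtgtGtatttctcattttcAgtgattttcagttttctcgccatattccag
Gm10718: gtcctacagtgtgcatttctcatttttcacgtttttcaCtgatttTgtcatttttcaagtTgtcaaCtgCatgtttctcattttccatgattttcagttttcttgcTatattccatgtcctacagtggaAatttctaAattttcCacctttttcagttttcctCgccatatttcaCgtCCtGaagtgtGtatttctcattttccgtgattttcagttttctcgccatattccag

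The Gm26870 stretch differs from the Gm21738 exon at 7 of 234 bases (97.0% identical) and the Gm10718 stretch at 15 (93.6% identical). Gm21738 itself had 6 counts in NSC control, 4 in NSC DAMGO, 210 in D2 control and 1002 in D2 DAMGO, with 3 and 92 in the naloxone libraries. Its additive log2 fold change was 2.37 (SE 0.21, adjusted p 0.00155, edgeR), and this rests on D2, where the ratio was 5.50 (4.74 to 6.42). Without the D2 DAMGO library the additive log2 fold change was -0.21, and without the D2 control library 0.28 with an adjusted p of 1.0. Gm10800 was at 140 CPM in D2 control and 828 in D2 DAMGO, and Gm26870 at 98.0 and 555 CPM. In NSC control these 2 genes had 79 and 56 counts, and in NSC DAMGO 4 each. DAMGO and control therefore had opposite orders in the 2 states for this family.

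Several nuclear or poorly annotated RNAs, some of them added after their values were seen, were also higher in D2 with DAMGO. Malat1, a long noncoding RNA of nuclear speckles, had 2830 counts in D2 control, 3404 in D2 naloxone and 5487 in D2 DAMGO, a ratio of DAMGO to control of 2.24 (2.14 to 2.34). In NSC it was at 827 CPM in control and 749 with DAMGO, above all D2 libraries. Gm26905 was at 95.2 CPM in D2 control and 253 in D2 DAMGO, and Gm37158 was at 25.5 and 80.7 CPM. These 2 predicted RNAs hold much of the same sequence, with 81.8% of the 20-base words of Gm37158 found in Gm26905. Kcnq1ot1, a nuclear antisense RNA of an imprinted domain, was at 30.4 and 48.1 CPM, and its log2 ratio was 0.66 on counts and 0.33 on log2(TPM + 1), the latter under 1.5-fold. Neat1, the scaffold RNA of paraspeckles, did not share this direction, with 27 counts in D2 control and 14 in D2 DAMGO.

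By annotation class, at 5 CPM or more, 13 of 39 genes of GENCODE's class TEC (transcribed regions whose products are still untested) were past 1.5-fold higher in D2, 33.3% of the class. The share was 7.14% for long noncoding RNAs (17 of 238) and 1.02% for protein-coding genes (107 of 10470), against 1.31% of all genes at that level. Past 1.5-fold lower there were 0 TEC genes, against 0.379% of all genes. The median log2 ratio of the TEC genes was 0.26 with DAMGO and 0.23 with naloxone, comparisons that share the D2 control library. In NSC, 0 of 50 TEC genes passed 1.5-fold, against 0.278% of all genes. The genes were sorted into classes after their values were seen.

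**Figure D3:**
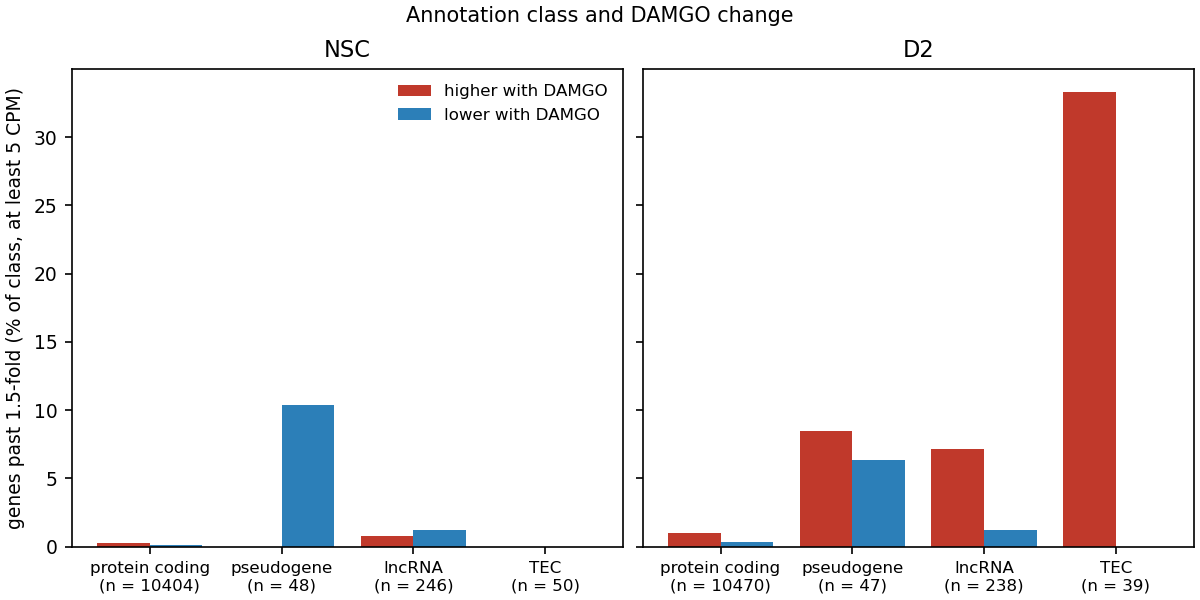
Percent of genes of each annotation class (at least 5 CPM in the state) that were past 1.5-fold higher (red) or lower (blue) with DAMGO, in NSC and D2. In D2 the TEC class reached 33.3% higher and 0 lower, while protein-coding genes reached 1.02% higher.

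Of the 28 genes past 1.5-fold higher in D2 at 20 CPM or more, 17 were predicted genes and 11 had established names, Malat1 and Kcnq1ot1 among them. Fgd4, an exchange factor for the GTPase Cdc42, had 304 counts in D2 control and 507 in D2 DAMGO, a ratio of 1.92 (1.67 to 2.23). Rorb, an orphan nuclear receptor, was at 22.3 and 39.8 CPM, with a log2 ratio of 0.83 on counts and 0.54 on log2(TPM + 1), under 1.5-fold. Naa15, a subunit of the N-terminal acetyltransferase NatA, was at 26.4 and 42.2 CPM. Clk1, a kinase of SR splicing factors, and Pnn, a nuclear speckle protein, had ratios of 1.54 and 1.55. In NSC the ratios of Fgd4, Rorb, Naa15, Clk1 and Pnn ranged from 0.908 to 1.06. At the lower minimum of 5 CPM, zinc finger genes named Zfp, grouped after their values were seen, were past 1.5-fold higher in D2 for 14 of 265 (5.28%), against 0.721% of other coding genes without a Gm name. In NSC the shares were 3 of 297 (1.01%) and 0.209%. In D2 these genes had a median log2 ratio of 0.06 with DAMGO and 0.07 with naloxone.

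In a second set of genes, lower in D2 with DAMGO, the D2 control library stood apart from both ligand libraries. Spp1, the secreted matrix protein osteopontin, had 622 counts in D2 control, 3 in D2 naloxone and 3 in D2 DAMGO, and 115 and 86 in NSC control and NSC DAMGO. Fibronectin (Fn1) had 565, 94 and 95 counts in D2 in the same order, a ratio of 0.194 (0.154 to 0.241). Foxo1, a transcription factor restrained by insulin signalling, had 622, 252 and 192. The imprinted RNA H19 had 137, 31 and 17 counts, the calcium-binding protein S100a6 118, 18 and 12, Col1a1 49, 7 and 6, and Col3a1 40, 3 and 4. This pattern was noticed after the values were seen, and H19, S100a6, Col1a1 and Col3a1 were added then. Of 37 tested collagen and matrix genes, 15 were higher and 22 lower in D2, where 49.7% of all genes were higher. Past 1.5-fold in D2, 0 were higher and 7 lower, against 566 and 327 of all 13216 genes. Their median log2 ratio was -0.06, and the summed ratio of all 45 listed genes was 0.980 (0.969 to 0.992). Bcan, the proteoglycan brevican, was at 1836 and 1906 CPM in D2 control and D2 DAMGO. B2m, the light chain of MHC class I, also was lower in D2 with DAMGO, at 58.9, 49.97 and 40.3 CPM.

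The list of fibroblast and pericyte markers was also mostly lower in D2, with 3 tested markers higher and 8 lower. It includes Fn1, Col1a1 and Col3a1 of the set above, so it is not separate from that set. Over 11 tested markers of 17 listed, 0 were higher and 6 were lower with DAMGO in both states, and 6 were past 1.5-fold lower in D2. Over all 13216 genes, 23.9% were higher and 25.9% lower in both states, and 327 were past 1.5-fold lower in D2. The median log2 ratio of the markers was -0.41 in NSC and -0.62 in D2 on counts, and -0.0566 and -0.21 on log2(TPM + 1). The summed level of all 17 listed markers in D2 was 244 CPM in control, 181 with naloxone and 182 with DAMGO. In NSC it was 307, 326 and 289 CPM. Fibroblast-defining Dcn and Lum were at 1.08 and 0.196 CPM in D2 control and at 0 in D2 DAMGO, and Pdgfrb was at 7.65 and 8.04 CPM. The part of such cells in the lower Spp1, Fn1 and collagen values was not tested, and in bulk RNA fewer cells of a type and less RNA per cell cannot be told apart. Markers of microglia and macrophages summed to 1.57 CPM in D2 control and 2.49 in D2 DAMGO, with 5 of 14 markers at 0 in all libraries, and endothelial markers to 5.69 and 4.98 CPM.

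**Figure D4:**
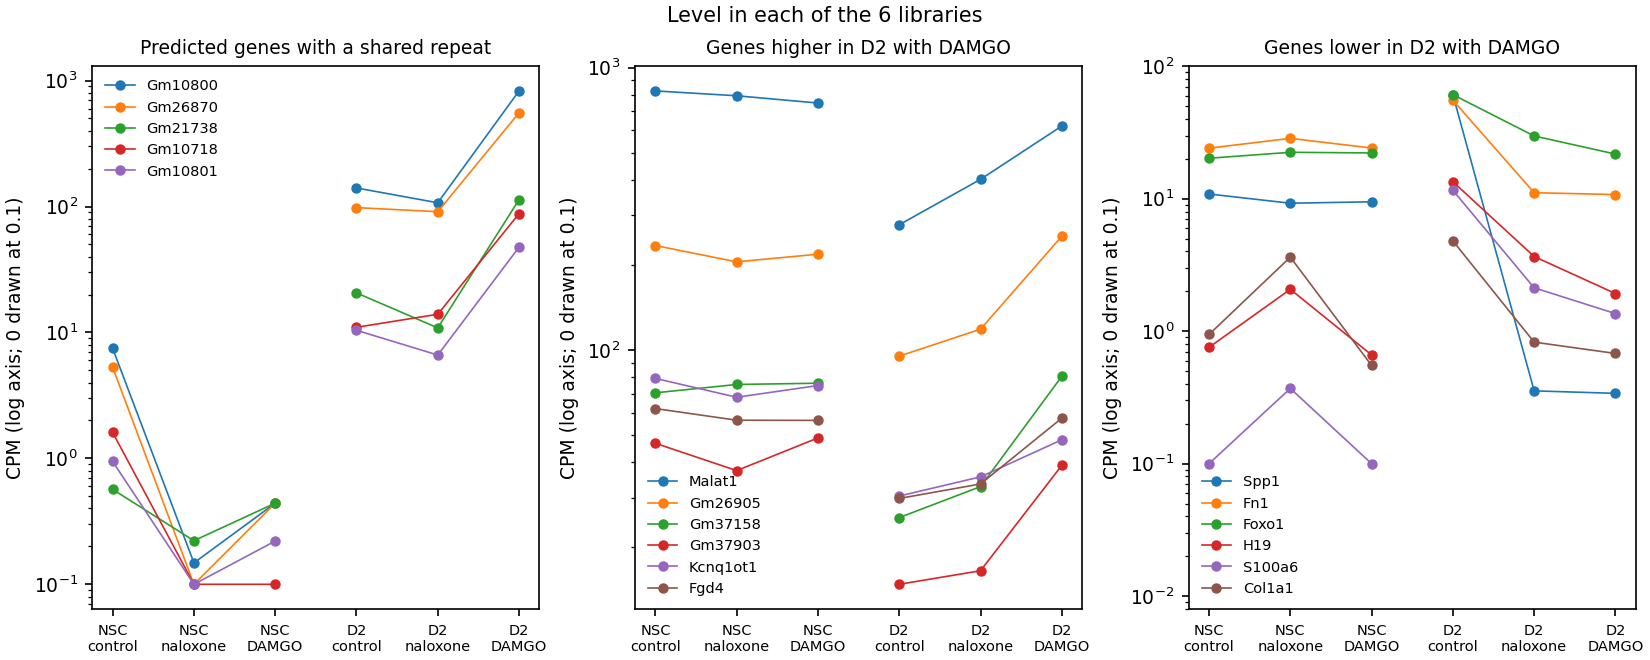
CPM on a log axis in each of the 6 libraries for predicted genes with a shared repeat (left), genes higher in D2 with DAMGO (middle) and genes lower in D2 with DAMGO (right); each point is 1 library, lines join libraries of a state, and 0 is drawn at 0.1. In the right panel D2 control stands above both ligand libraries, and in the left panel D2 DAMGO stands above D2 control and D2 naloxone.

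Lists of the signalling path below opioid receptors had medians near 0, while single members reached larger ratios. In D2 the log2 ratios ran from -0.49 to 0.68 for Gi signalling and from -1.07 to 0.48 for the cyclic AMP pathway. There, 1 Gi gene was past 1.5-fold higher and 1 cyclic AMP gene past 1.5-fold lower, against 566 and 327 of 13216 genes. Gnas, described above, had opposite changes in NSC and D2. Over 815 genes in the 39 lists examined, edgeR called 0 for DAMGO, with 27 at an unadjusted p under 0.05 and 0 called by DESeq2. Of 30 tested Gi signalling genes, 7 were higher and 9 lower in both states, near the 23.9% and 25.9% of all genes. Gnai2, an inhibitory alpha subunit, was at 500 and 471 CPM in NSC and at 1016 and 1002 CPM in D2. Rgs19, which speeds GTP hydrolysis on Gi alpha subunits, was at 16.2 and 19.4 CPM in NSC and at 11.5 and 14.03 CPM in D2. Of 31 cyclic AMP pathway genes, 8 were higher and 9 lower in both states, and Adcy2, an adenylyl cyclase, was at 29.9 and 37.8 CPM in NSC and at 67.1 and 68.9 CPM in D2.

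Immediate early genes past 1.5-fold in D2 had few counts. Of 28 immediate early genes, 5 were higher and 10 lower in both states, against 23.9% and 25.9% of all genes. In D2 alone 11 were higher and 17 lower, with a median log2 ratio of -0.03. Past 1.5-fold in D2, 2 were higher, Zfp36 (23 and 36 counts) and Fosl2 (16 and 22), and 7 were lower, all with 35 or fewer counts in D2 control. Over all 13216 genes, 566 were past 1.5-fold higher in D2 and 327 lower. Arc had 332 and 279 counts in NSC and 9 and 2 in D2, Fosb 43 and 40 in NSC and 12 and 3 in D2, and Junb 90 and 81 in NSC and 35 and 17 in D2. Fos itself had 329 and 308 counts in NSC and 38 and 47 in D2. Of 20 ERK targets, 2 were higher and 7 lower in both states, with a median log2 ratio of -0.02 in NSC and -0.09 in D2, and -0.10 with naloxone in D2. Among them the phosphatase gene Dusp4 was at 7.85 and 4.75 CPM in D2, and cyclin D1 (Ccnd1) at 2632 and 2643 CPM in NSC and 150 and 139 in D2.

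Lists of proliferation genes had medians near 0, while single members varied more in D2, between log2 ratios of -0.57 and 0.53 for G2 and mitosis and between -0.40 and 0.39 for replication. Of 40 DNA replication genes, 32 were higher with DAMGO in NSC, where 48.2% of all genes were, with a median log2 ratio of 0.05 and a summed ratio of 1.02 (1.01 to 1.03). In D2, 20 of the 40 were higher and the median was 0.00. Pcna, the polymerase clamp, was at 537 and 538 CPM in NSC, and Pola1, a subunit of primase-polymerase alpha, at 105 and 117 CPM. Of 39 genes of G2 and mitosis, 24 were higher in NSC and 11 in D2, where 49.7% of all genes were, with medians of 0.00 and -0.08. The proliferation marker Mki67 was at 1532 and 1475 CPM in NSC and at 22.4 and 29.8 CPM in D2, and 41.1 CPM with naloxone in D2. Topoisomerase Top2a was at 1081 and 1113 CPM in NSC and 81.9 and 79.9 CPM in D2.

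The lists of neural lineage markers had medians near 0, while single markers reached larger ratios, from -0.64 to 0.81 on the log2 scale for neuronal markers in D2. The 27 neural stem cell markers had median log2 ratios of -0.02 in NSC and -0.04 in D2. Of them, 3 were higher and 10 lower in both states, against 23.9% and 25.9% of all genes. Sox2 was at 367 and 391 CPM in NSC and at 632 and 551 CPM in D2. Astrocyte markers had medians of -0.02 and -0.02, oligodendrocyte lineage markers -0.01 and -0.05, and neuronal markers 0.01 and 0.01. Dcx, a microtubule protein of young neurons, was higher in both states, at 8.78 and 10.7 CPM in NSC and 66.1 and 77.5 CPM in D2. Pdgfra, the receptor that marks oligodendrocyte precursors, was lower in both, at 13.1 and 11.9 CPM and at 414 and 367 CPM. Gfap in D2 had a ratio of 1.58 (1.15 to 2.19), and its naloxone library, at 11.3 CPM, was close to DAMGO.

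In some lists, members with 1 direction in both states outnumbered those with the other, with medians under 0.1 in size. Of 26 Wnt pathway genes, 14 were lower and 2 higher in both states, with medians of -0.06 and -0.03, and beta-catenin (Ctnnb1) was at 1173 and 1161 CPM in NSC and 1836 and 1780 in D2. Of 24 cholesterol genes, 15 were lower and 3 higher in both, with medians of -0.03 and -0.07, and Srebf2, a transcription factor of sterol synthesis genes, was at 529 and 518 CPM in NSC and 450 and 424 in D2. For 24 Notch genes 13 were lower and 5 higher, with D2 medians of -0.0226 on counts and 0.0199 on log2(TPM + 1), and Hes1 was at 34.9 and 30.2 CPM in NSC and 13.4 and 11.5 in D2. Of 25 DNA methylation genes 12 were lower and 1 higher, and Dnmt1, the maintenance methyltransferase, was at 612 and 603 CPM and at 154 and 149 CPM. In the other direction, 11 of 29 genes of the unfolded protein and integrated stress responses were higher and 4 lower, and 10 of 26 heat shock genes were higher and 3 lower. In D2 alone, 13 heat shock genes were higher and 13 lower, and the summed ratio of the list was 1.00 in NSC (0.990 to 1.01) and 0.990 in D2 (0.979 to 1.002). Hsp90aa1, an inducible chaperone, was at 977 and 1003 CPM in NSC and 175 and 214 in D2. Each of these counts stands beside 23.9% of all genes higher and 25.9% lower in both states.

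**Figure D5:**
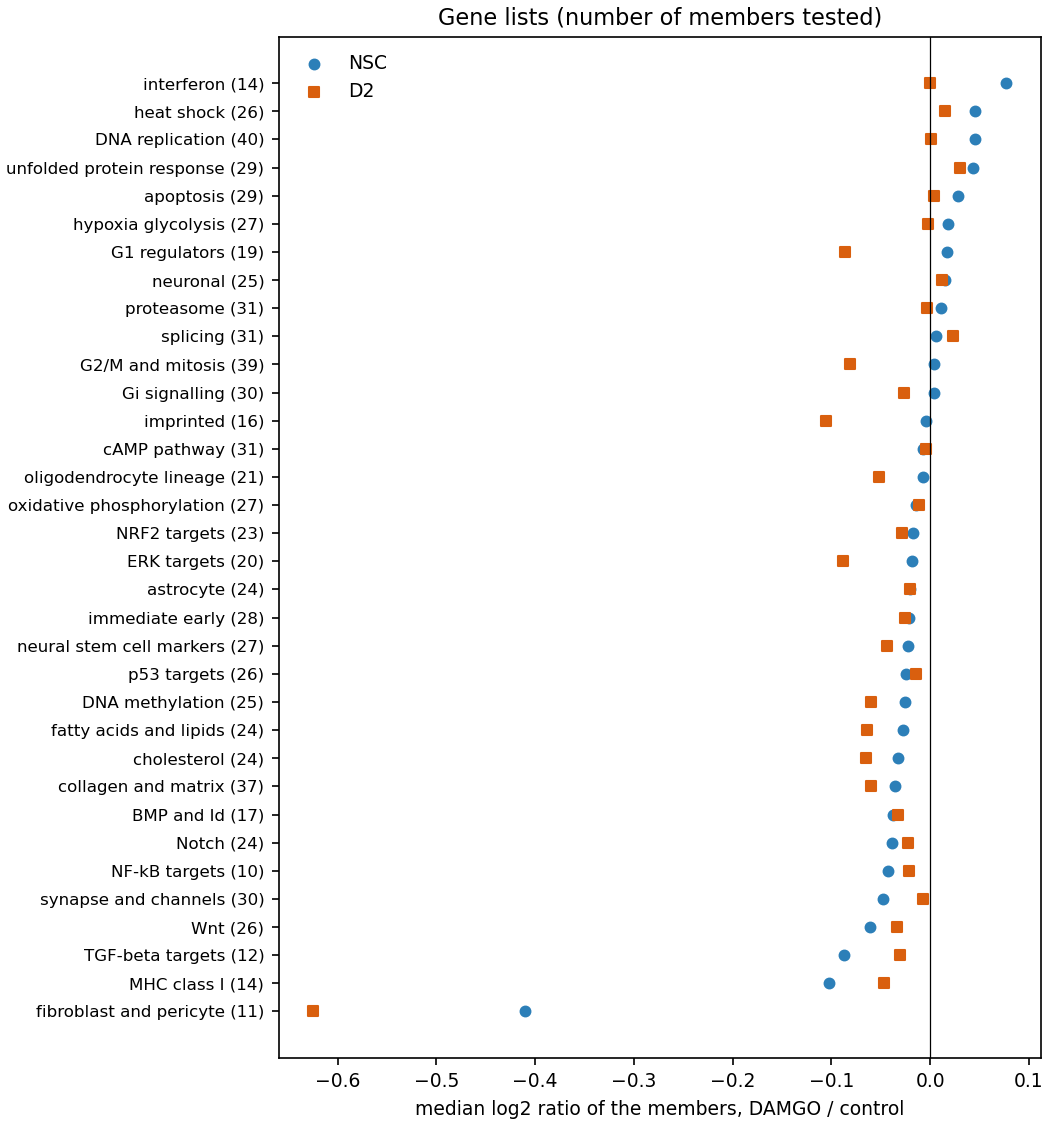
Median log2 ratio of DAMGO to control over the tested members of each gene list in NSC (blue circles) and D2 (orange squares), for lists with at least 8 tested members; the number of members is in parentheses. Only the list of fibroblast and pericyte markers has medians beyond 0.2 in size, at -0.41 in NSC and -0.62 in D2; on log2(TPM + 1) they were -0.0566 and -0.21.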

How the data were processed

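Sequencing libraries came from Trizol-extracted RNA and an Illumina TruSeq kit, per the labels; this kit does not mark strand. Bowtie, RSEM and build mm10 are named in the submitters' processing notes, while versions, annotation and filters are not given there or in the labels. The authors deposited an expected count (an estimate that divides shared reads between genes) and a TPM for each of 29267 genes, of which 28756 matched GENCODE M21. FPKM values were not used. Totals ranged from 8417074 to 13561237 expected counts.

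Expected counts were rounded, genes with a mean of at least 10 over 6 libraries were kept (13216), and TMM-scaled counts entered a quasi-likelihood fit (edgeR 4.0.16, R 4.3.3; state as block, ligand as term; Benjamini-Hochberg, threshold 0.05). DAMGO changes within a state are log2 ratios with a prior count of 2. Alternatives used DESeq2 1.42.0, limma 3.58.1 on log2(TPM + 1), other filters and leaving out each library. Tested on counts simulated for the additive DAMGO comparison over 13216 genes, the fit recovered 84% of genes changed 1.5-fold, 88% of those raised 2-fold, 80% of those lowered 2-fold and 100% of those changed 4-fold, and called 6 unchanged genes. The simulation put the same change in both states, held no other ligand differences and gave every gene the same spread. These rates therefore do not extend to changes in 1 state or to genes of larger spread. Depth limits low genes: 3 counts in a library are 0.221 to 0.356 CPM.

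Named genes were all called genes; the 10 highest and lowest in the same direction (at least 5 CPM); the 5 highest and lowest in each state and the 5 with opposite changes each way (at least 20 CPM), without predicted names; and up to 4 members with the largest change and 2 of the most abundant of each list discussed. Repeat genes, nuclear RNAs, matrix genes, overlapping partners and a few list members such as Arc, Fosb, Junb and Fos were added after their values were seen. The comparison and the lists were chosen with earlier results of these data known.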

Additional observations from a re-analysis of the deposited data

Results flagged for a closer look

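Among named genes with opposite changes and genes added after their values were seen, 16 had DAMGO above control in one state and below it in the other with 95% counting intervals that excluded 1 in both. By direction alone, 6639 of 13216 genes did not share a direction. With 1 library per group and state the difference between the states was not tested. The difference of the log2 ratios, D2 minus NSC, was 6.16 for Gm10718, 6.14 for Gm10800 and 5.60 for Gm26870, all of the repeat family, and 4.50 for Gm20721, which overlaps Gnas (-0.69). For RNAs higher in D2 it was 1.30 for Malat1, 1.51 for Gm26905 and 1.80 for Gm29055, and 1.01 for Gm42418, which overlaps ribosomal RNA over 99.5% of its exon bases. Tom1 had -1.87, Alyref -0.57 and Lzic -0.56. Kif21a had 0.66, Dtd1 0.57, Phpt1 0.54 and Top3b 0.48; on log2(TPM + 1) Top3b was lower in both states, at -0.0452 in D2.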

How the results depend on the processing

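The 2 calls of the additive edgeR test depended on the processing. Without a filter on low counts 46 genes were higher and 37 lower, with the 4 control and DAMGO libraries alone 1 higher and 2 lower, and with DESeq2 or limma on log2(TPM + 1) or log2(TPM + 0.1) 0 either way. Leaving out each library in turn gave 1 to 89 genes higher and 3 to 34 lower, the most without NSC control (89 and 34), and 14 and 11 without NSC naloxone, 39 and 7 without NSC DAMGO and 2 and 14 without D2 control. Gm21738 ranged from -0.21 (without D2 DAMGO) to 2.45 (without NSC DAMGO), and its call was also lost without D2 control. Gm28042 was not called without D2 DAMGO (adjusted p 0.0608, edgeR), and its adjusted p over the other alternatives with a call reached 0.0425. Pgk1-rs7 was called with the 4 libraries alone (adjusted p 0.00575, edgeR) and in most fits without 1 library. Pla2g4b changed direction with limma on TPM, to -0.0841 and -0.0987.

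Past 1.5-fold in NSC, log2(TPM + 1) gave 11 higher and 10 lower, a minimum of 5 CPM 30 and 26, and one of 50 CPM 1 and 1. In D2 these gave 14 lower by TPM, 142 and 41 at 5 CPM, and 10 and 0 at 50 CPM. Set against naloxone in place of control, added after seeing the data, DAMGO had 3 genes lower in NSC. The correlation of the NSC and D2 changes was -0.0345 by TPM, 0.10 at 5 CPM and -0.17 at 50 CPM. Of the other values in a single state 217 kept within their counting interval and 7 did not, all on log2(TPM + 1): Alyref, Hmga1b, Kcnq1ot1, Naa15, Rorb and Top3b in D2 and Malat1 in NSC; the cause was not tested.

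No paired analysis was possible beyond the state block because each group held 1 library.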

Other observations

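The naloxone libraries give the difference between the states with no library shared with the DAMGO comparison. Across 7048 genes, as a description over genes of the same libraries, r between the D2 DAMGO change and the D2 against NSC change of the naloxone libraries was -0.17, and for the NSC DAMGO change it was -0.05. Of the 28 genes past 1.5-fold higher in D2, 19 (67.9%) were lower in D2 than in NSC in the naloxone libraries, against 44.5% of the 7895 genes of that level. Malat1, Gm26905 and Fgd4, for example, were at 795, 205 and 56.4 CPM in NSC naloxone and at 402, 118 and 33.6 CPM in D2 naloxone.

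A pair of predicted or poorly resolved genes had counts that came and went between libraries. Gm14288 had 56 counts in NSC control, 36 in D2 control, 60 in D2 naloxone, 1 in NSC naloxone and 0 in both DAMGO libraries. Nanp, a sialic acid phosphatase, had 50 counts in NSC control and 52 in D2 naloxone, 2 in NSC naloxone, and 0 in both DAMGO libraries and D2 control. Neither passed the edgeR test (adjusted p 1.0 for each).

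Among MHC class I genes, 7 of 14 were lower and 2 higher in both states, against 25.9% and 23.9% of all genes. The summed ratio of the 17 listed genes was 0.991 in NSC (0.971 to 1.011) and 0.982 in D2 (0.961 to 1.003). H2-D1 was at 18.6 CPM in D2 control, 9.92 with naloxone and 11.8 with DAMGO, and at 11.4 and 10.9 CPM in NSC control and NSC DAMGO.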
